A study of Mus musculus with 32 samples.

Results

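The effect of adding Activin-A to IFN-γ for 4 hrs was measured in YUMM3.3 cells, an established Braf-mutant mouse melanoma line, by setting wells co-treated with both factors against wells given IFN-γ alone. The comparison took 8 of the 32 samples in the series, namely all 4 wells of the co-treated group and all 4 wells of the IFN-γ group at 4 hrs, and covered every gene in the count table. The other 24 samples were untreated wells and wells with Activin-A alone at 4 hrs and the same 4 treatments at 12 hrs, again with 4 wells each. Both groups compared here received 20 ng/ml of IFN-γ, and the co-treated group received 40 ng/ml of Activin-A as well, so that the groups differed in Activin-A only. This is the dose in the labels and methods, and some legends of the study give a higher one. Cells were grown in 6-well plates, and mRNA was counted by BRB-seq, a bulk RNA-seq method that barcodes each sample and reads the 3′ end of transcripts. All wells held a single cell line, without stroma or immune cells, and the labels do not say whether the 4 wells of a group came from separate cultures, so that p-values measure the spread between wells only. The labels name skin as the tissue, whereas the material was a cultured line.

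Activin-A is a TGF-β family ligand that binds type II receptors (Acvr2a, Acvr2b), which activate the type I receptor Acvr1b. The receptor phosphorylates Smad2 and Smad3, which enter the nucleus with Smad4 and change transcription, and many of the genes they induce, such as Pmepa1, Smad7 and Skil, feed back to dampen the pathway, while follistatin (Fst) binds the ligand outside the cell. IFN-γ acts through JAK kinases and STAT factors, which induce Irf1 and through it genes for antigen presentation, guanylate-binding proteins, chemokines and the checkpoint ligand Cd274. In melanoma, Activin-A is known for its secretion by tumor cells and for its influence on the surrounding stroma and immune cells, and IFN-γ for signalling from T cells to tumor cells.

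The 4 IFN-γ wells held 697656 to 1187004 counts (median 1000748) and the 4 co-treated wells 976765 to 1190671 (median 1099585.5). Genes with a count numbered 11210 to 11555 a well, ribosomal protein genes took 8.31 to 9.08% of counts, and 3 counts corresponded to 2.58 to 4.42 CPM, the count scaled to the total of the tested genes after TMM normalization, which is the level below which a gene could not be told from absent in a well. Melanoma and melanocyte lineage genes were present in every well, with summed levels of 1651 to 1746 CPM with IFN-γ and 1741 to 1780 CPM with both factors over the 17 of 19 listed genes in the table, led by Axl, Pmel and Gpnmb. Of the markers of other cell types, none of 6 endothelial genes was in the table, 7 of 14 leukocyte genes were present at a summed 8.84 to 34.9 CPM with IFN-γ and 20.6 to 30.6 CPM with both, and Ptprc averaged 1.18 and 1.91 CPM. The 4 fibroblast and pericyte genes in the table summed to 85.5 to 111 and 92.7 to 118 CPM, most of it from Cspg4, which melanoma cells also express, and 1 of 5 keratinocyte genes, Krt10, was present. One well of a group outside this comparison, Activin-A alone at 4 hrs replicate 1, stood apart from its group: the chi-squared statistic per gene was 2.45 to 2.89 in the 3 pairs with that well, against 1.16 to 1.42 in the 9 other pairs outside the groups compared and 1.18 to 1.54 in the 12 pairs within them. That well entered the fit through the shared estimate of spread, and several counts and genes are therefore also given without it.

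Of 9137 genes tested, 74 (0.81%) differed when Activin-A was added to IFN-γ, at a Benjamini-Hochberg adjusted p under 0.05 by the quasi-likelihood test of edgeR. The count was 134 without Activin-A well 1 in the fit, 120 with only the 8 wells, 44 with DESeq2, and as low as 47 without a single well compared (both replicate 4 or IFN-γ replicate 2). Higher levels with both factors were called for 51 genes (0.558%) and lower levels for 23 (0.252%). Changes were mostly moderate: 30 of the higher and 6 of the lower genes changed at least 1.5-fold, 14 and 1 at least 2-fold, and 4 and 0 at least 4-fold. The 4 were Pmepa1, Dusp28, Ust and Fgd3, of which Fgd3 had too few counts for the naming rule and is named here after its values were seen. The single gene at least 2-fold lower was Nefm. In 73 of the 74 genes the wells of the groups did not overlap, the exception being Hes1. The same wells selected these genes, so this adds no separate evidence, and genes named by size were required not to overlap. Over all genes tested 276 (3.02%) had every co-treated well above every IFN-γ well and 281 (3.08%) every one below. The median log2 fold change over all genes was -0.01, and 4395 of them (48.1%) lay above 0.

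**Figure D1:**
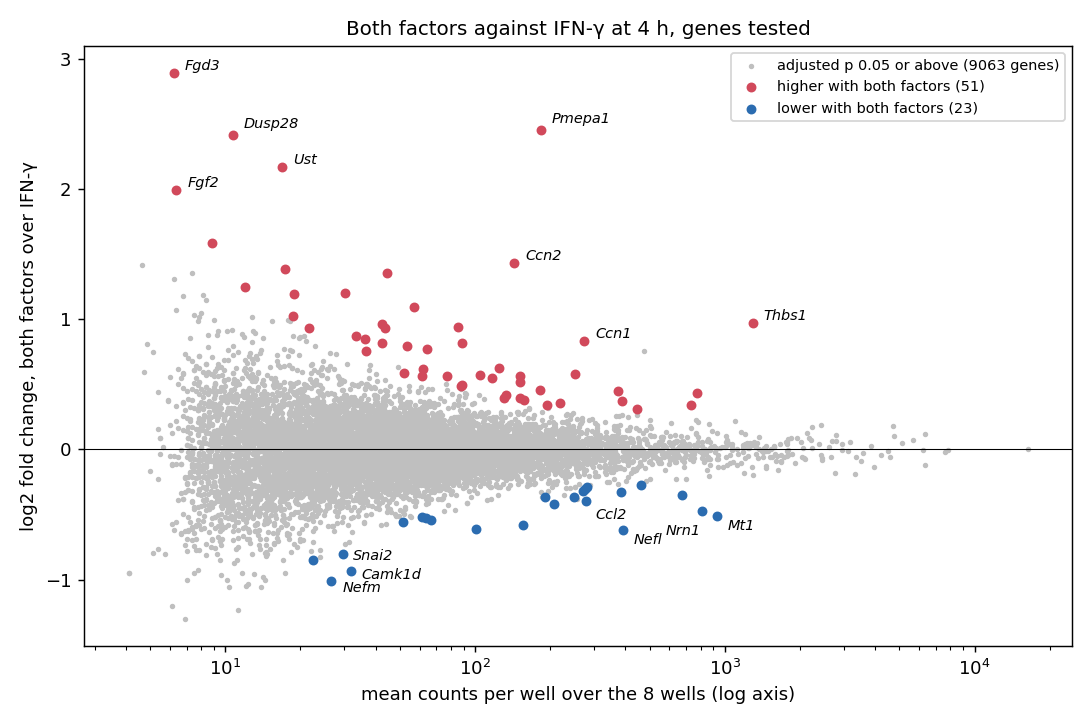
Log2 fold change of both factors over IFN-γ alone at 4 hrs (vertical axis) against the mean count per well (horizontal axis, log scale) for the 9137 genes tested, with the 51 genes called higher and the 23 called lower in colour. Most called genes changed by less than 2-fold, and Pmepa1, with 5.48-fold, stands apart among well-counted genes.

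Among feedback genes of the Activin pathway, Pmepa1 (ENSMUSG00000038400), a membrane protein that binds receptor-activated Smads and limits their signalling, responded most. Its level was 65.4, 51.5, 36.8 and 58.6 CPM in the 4 IFN-γ wells and 282, 287, 299 and 315 CPM in the 4 co-treated wells. Every co-treated well was more than 4 times above every IFN-γ well, and the means were 53.1 ± 12.2 and 296 ± 14.8 CPM (SD, n = 4 each). This amounted to a log2 fold change of 2.45 (SE 0.11, edgeR adjusted p 1.07e-24). Skil (SnoN) and Ski are corepressors that bind Smad complexes. Skil was at 13.6, 13.1, 11.8 and 18.1 CPM with IFN-γ and at 31.7, 21.5, 30.6 and 27.96 CPM with both (log2 fold change 0.93, SE 0.24, edgeR adjusted p 0.0407). Ski was at 101, 112, 125 and 112 CPM and at 149, 137, 151 and 162 CPM (0.42, SE 0.10, edgeR adjusted p 0.0172). In both corepressor genes the groups did not overlap, but DESeq2 did not call them (adjusted p 0.203 for Skil and 0.0888 for Ski), and they were called in 2 and 5 of the 8 fits that left out a single well.

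Of 41 pathway genes tested, 3 (7.32%, against 0.558% of all genes) were called higher and none lower, with a median log2 fold change of 0.04, and all 3 belonged to the 12 feedback inhibitors. The count was 5 (12.2%) both without Activin-A well 1, where 0.888% of all genes were called higher, and with only the 8 wells, where 0.831% were. Inhba and Fstl1 were the 2 genes added, and DESeq2 called Pmepa1 only. The inhibitory Smad gene Smad7 was at 39.5, 30.6, 23.6 and 31.9 CPM with IFN-γ and at 32.7, 37.8, 46.9 and 42.4 CPM with both. These groups overlapped, and the log2 fold change of 0.34 (95% confidence interval 0.00 to 0.68) was not called (edgeR adjusted p 0.546). Inhba, which encodes the subunit of Activin-A itself, was at 92.5, 93.5, 84.0 and 97.4 CPM with IFN-γ and at 116, 125, 135 and 110.0 CPM with both. It did not overlap between groups but missed the threshold (log2 fold change 0.39, SE 0.11, edgeR adjusted p 0.0712), and it was called once the fit left out Activin-A well 1 (edgeR adjusted p 0.0378). Fstl1, a secreted follistatin-like protein, was at 381, 312, 323 and 340 CPM with IFN-γ and at 379.8, 408, 429 and 402 CPM with both, overlapping in 1 well of each group (log2 fold change 0.26, edgeR adjusted p 0.0851, and 0.0262 without that well). None of the 9 receptors and 5 Smads tested was called. The receptors ran from -0.64 for Tgfbr3 (edgeR adjusted p 0.406) to 0.47 for Eng (0.12), which are both co-receptors, and Eng was higher in every co-treated well. Of the receptors and Smads that transmit the Activin signal, the log2 fold changes were 0.19 for Acvr2a, -0.08 for Acvr1b, -0.16 for Smad2 and 0.07 for Smad3, with edgeR adjusted p-values of 0.838 to 0.965. Acvr2a overlaps Orc4 on the opposite strand, which had more counts. The 4 Id genes, known targets of the BMP branch of the family, all lay below 0 with a median of -0.15, and none was called.

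Genes of the extracellular matrix and its receptors made up the largest listed group among the higher genes. Of 45 matrix and matricellular genes tested, 8 (17.8% against 0.558% of all genes) were called higher and none lower, 13 (28.9% against 3.02%) had every co-treated well above every IFN-γ well and 1 (Thbs2) every well below, while the median over the list was 0.04. Thbs1 (ENSMUSG00000040152), the matricellular protein thrombospondin 1 that also activates latent TGF-β, had the smallest adjusted p among the 8. It was at 821, 859.6, 852 and 873 CPM with IFN-γ and at 1693, 1674, 1679 and 1632 CPM with both, without overlap (log2 fold change 0.97, SE 0.06, edgeR adjusted p 3.8e-18). Ccn2 (connective tissue growth factor, ENSMUSG00000019997) was at 74.03, 62.9, 70.7 and 90.5 CPM with IFN-γ and at 183, 197, 229.6 and 200.2 CPM with both. Every co-treated well of Ccn2 was at more than 2 times the highest IFN-γ well, and the log2 fold change was 1.43 (SE 0.12, edgeR adjusted p 3.82e-14). Its relative Ccn1 (Cyr61, ENSMUSG00000028195) was at 151, 190.4, 192 and 226 CPM and at 314, 322, 358 and 368 CPM (0.83, SE 0.09, edgeR adjusted p 1.17e-09).

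The other called matrix genes described here were 2 integrin subunits, a proteoglycan and a collagen. Itgb5 was at 58.0, 70.8, 53.05 and 64.7 CPM with IFN-γ and at 137, 91.9, 107 and 110.0 CPM with both (log2 fold change 0.82, edgeR adjusted p 1.92e-05). Its partner Itgav, with which it forms an integrin that binds vitronectin and latent TGF-β, was at 105, 133, 131 and 121 CPM and at 178, 177, 191 and 158 CPM (0.52, edgeR adjusted p 0.00089). Both subunits were thus higher in all co-treated wells. Bgn (biglycan) rose from 637 ± 78.6 to 869 ± 32.4 CPM and Col5a2 from 93.0 ± 6.9 to 137 ± 8.07 CPM (SD, n = 4 each, edgeR adjusted p 0.000121 and 0.00236). Itgb1 and Sparc did not overlap between groups and were called without Activin-A well 1 (log2 fold change 0.22 and 0.17, edgeR adjusted p 0.0546 and 0.11 with that well and 0.00766 and 0.0124 without it). Of 14 collagens and crosslinkers tested, Col5a2 was the only one called, and the median over the 14 was -0.06.

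**Figure D2:**
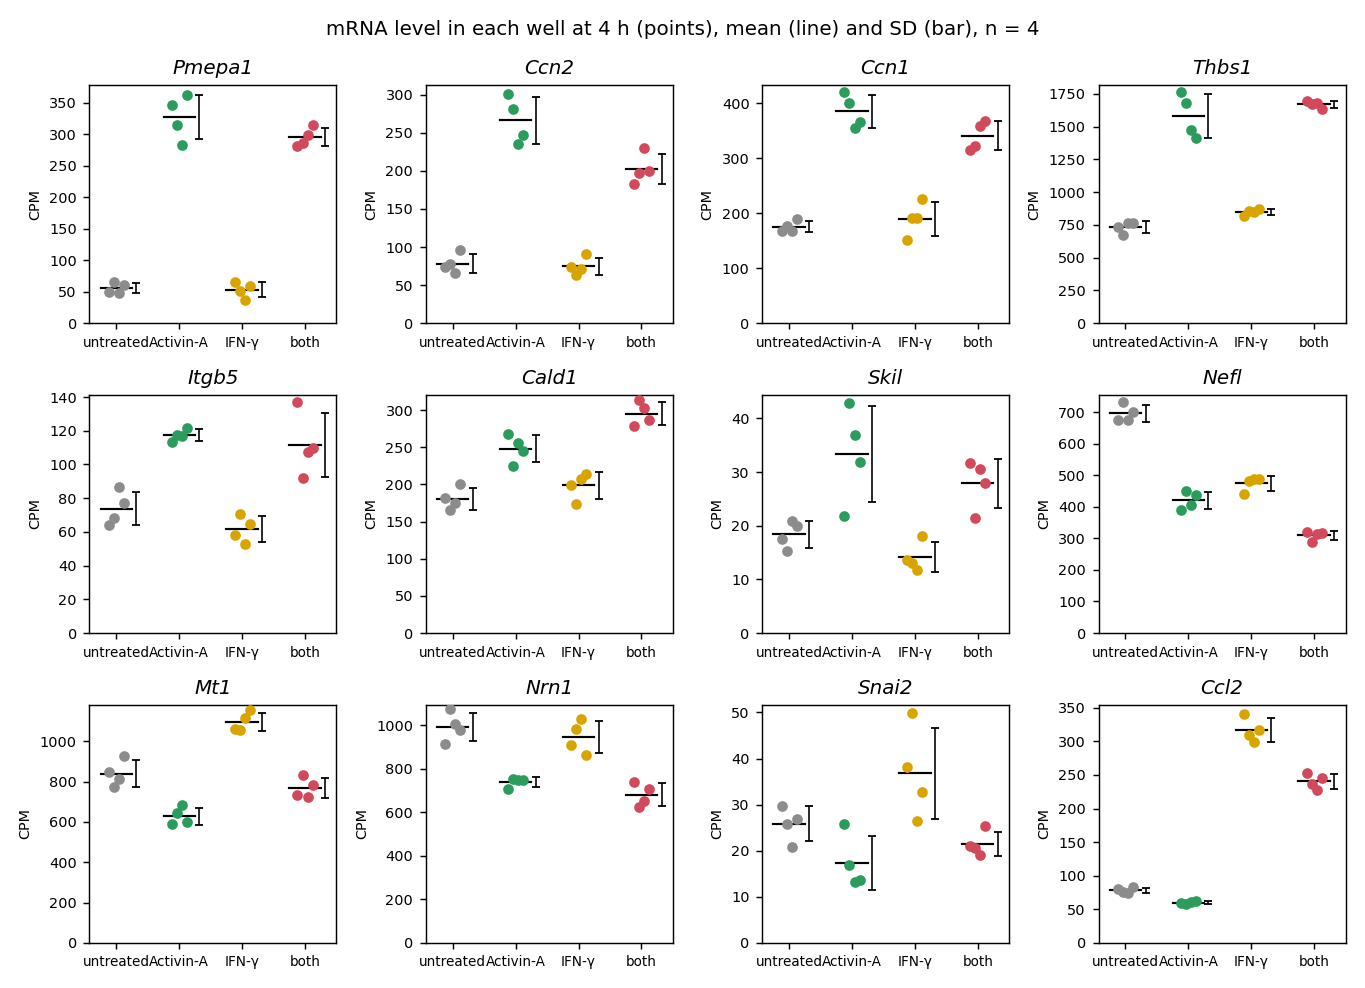
CPM in each of the 4 wells of the 4 treatment groups at 4 hrs for 12 genes, with a bar at each group's mean and its SD beside it. For Pmepa1, Ccn2 and Thbs1 the co-treated wells and those with Activin-A alone lie above both groups without Activin-A, whereas Ccl2 is high in both IFN-γ groups and lower with both factors than with IFN-γ alone.

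Of 13 actin-binding genes tested, 3 (23.1% against 0.558% of all genes) were called higher (Cald1, Cnn2 and Pdlim7) and none lower. All 13 had a log2 fold change above 0, with a median of 0.13, against 48.1% of all genes. Cald1, caldesmon, was at 199, 174, 208 and 215 CPM with IFN-γ and at 279, 313, 303 and 287 CPM with both (log2 fold change 0.58, SE 0.08, edgeR adjusted p 4.27e-06). Cnn2, calponin 2, rose from 633 ± 67.1 to 803 ± 35.4 CPM (0.34, edgeR adjusted p 0.00256), and Pdlim7 from 133 ± 21.6 to 175 ± 10.6 CPM (0.38, edgeR adjusted p 0.0407, not called by DESeq2 at 0.139, SD, n = 4 each). Tes, Tpm1 and Tpm4 also had every co-treated well above every IFN-γ well without passing the test, so that 6 of the 13 did (46.2% against 3.02% of all genes). Among called genes outside the pathway lists, named here after their values were seen, Pdlim1, Fblim1, Tgfb1i1, Fhl2 and Rflnb encode proteins of actin fibres and focal adhesions, with log2 fold changes of 0.45, 0.94, 0.39, 0.34 and 1.59. DESeq2 did not call Tgfb1i1, Fhl2 or Rflnb (adjusted p 0.185, 0.16 and 0.128), which edgeR called in 2, 1 and 3 of the 8 fits without a single well. Acta2, smooth muscle actin, overlapped at 4 hrs (0.17, edgeR adjusted p 0.413).

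Several genes of growth factors and receptors were among the higher genes, a group for which no list was fixed. Pdgfb, a chain of platelet-derived growth factor, was at 6.17, 6.11, 5.89 and 8.62 CPM with IFN-γ and at 16.9, 16.3, 16.3 and 16.2 CPM with both (log2 fold change 1.25, edgeR adjusted p 0.024). Pdgfc, which encodes another chain, was at 37.0, 23.6, 19.2 and 31.0 CPM and at 44.3, 61.8, 54.5 and 55.9 CPM (0.96, edgeR adjusted p 0.00236). Pdgfa was called as well at 0.36 (edgeR adjusted p 0.0288), so that 3 PDGF chains were higher with both factors. DESeq2 did not call Pdgfb (adjusted p 0.173) or Pdgfa (0.0947), and edgeR called them in 1 and 4 of 8 fits without a single well. Fgf2 and the receptor gene Fgfr1 were also called (1.99 and 0.57, edgeR adjusted p 0.0267 and 0.000293). Fgf2 was low in every well, with 3.7, 1.75, 5.89 and 0 CPM against 8.44, 9.45, 9.57 and 11.7 CPM, it overlaps Nudt6 on the opposite strand, DESeq2 did not call it (adjusted p 0.123), and edgeR called it in 3 of the 8 fits without a single well, with log2 fold changes of 1.49 to 2.53. The protease-activated receptor F2rl1 and the GLP-1 receptor Glp1r rose 1.49-fold and 2.29-fold (edgeR adjusted p 0.00299 and 0.00236). Pdgfa, Fgf2, Fgfr1 and F2rl1 are named after their values were seen.

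Several of the largest increases fell on genes outside the listed pathways. Dusp28, an atypical dual-specificity phosphatase, was at 3.7, 3.49, 2.95 and 2.59 CPM with IFN-γ, near the level of 3 counts, and at 25.3, 11.2, 17.2 and 17.1 CPM with both (log2 fold change 2.42, SE 0.40, edgeR adjusted p 7.18e-05). Ust, a sulfotransferase that modifies chondroitin and dermatan sulfate, was at 7.4, 6.99, 2.95 and 5.17 CPM and at 27.4, 32.6, 17.2 and 27.96 CPM (2.17, SE 0.29, edgeR adjusted p 1.12e-06). The secreted serine protease Prss23 was at 27.1, 17.5, 25.05 and 27.6 CPM and at 55.9, 64.4, 73.7 and 52.3 CPM (1.35, SE 0.19, edgeR adjusted p 1.27e-06). None of these genes overlapped between groups. Cdh6 (a cadherin), Ttll5, Stard5, Wwc2 and Fblim1 completed the genes named by size, which rose 2.14-fold, 2.3-fold, 2.04-fold, 1.91-fold and 1.92-fold. Ttll5 shares sequence with Tgfb3 and Stard5 with Il16 on opposite strands, and since the strand setting of the counts is not given in the sources used here, reads from such pairs cannot be told apart. DESeq2 did not call Stard5 (adjusted p 0.181), which edgeR called in 3 of the 8 fits without a single well. Fgd3 was at 0, 0, 1.47 and 3.45 CPM with IFN-γ and at 10.6, 11.2, 8.61 and 11.7 CPM with both, too few counts for a firm fold. Hes1, the Notch target whose wells overlapped, was at 35.8, 39.3, 44.2 and 35.4 CPM and at 70.7, 42.9, 70.8 and 83.0 CPM (0.79, edgeR adjusted p 0.00299).

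The 250 bases before the start of a gene were searched on both strands, as given by RefSeq for GRCm38.p6, for 5 kinds of motif: the short Smad-binding element CAGAC, its palindromic form GTCTAGAC, the AP-1 motif TGACTCA, which reads as TGAGTCA on the other strand, the IFN-γ-activated site TTCNNNGAA and the TEAD motif GGAATG. Promoters were given for 51 of the 74 called genes, of which 36 were higher and 15 lower, and for 7333 of the genes tested. The windows of 4 higher genes, chosen after the search, are shown because each carries at least 1 of the Smad, AP-1 or TEAD motifs, with the motifs in capitals. The Dusp28 window lies at chr1:92906739-92906988 on the plus strand, that of Pdgfc at chr3:81036166-81036415 on the plus strand, the first of 2 for Fblim1 at chr4:141606053-141606302 on the minus strand, and that of Ccn1 at chr3:145649986-145650235 on the minus strand.
Dusp28: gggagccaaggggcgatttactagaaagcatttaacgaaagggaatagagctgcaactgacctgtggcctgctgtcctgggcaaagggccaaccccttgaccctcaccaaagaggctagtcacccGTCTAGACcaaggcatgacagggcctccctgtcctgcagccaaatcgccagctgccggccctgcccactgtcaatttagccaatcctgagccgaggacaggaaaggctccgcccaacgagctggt
Pdgfc: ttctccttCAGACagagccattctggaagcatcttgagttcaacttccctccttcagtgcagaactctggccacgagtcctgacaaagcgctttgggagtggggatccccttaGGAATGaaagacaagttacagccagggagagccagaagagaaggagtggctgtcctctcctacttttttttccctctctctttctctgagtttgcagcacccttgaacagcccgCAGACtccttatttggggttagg
Fblim1: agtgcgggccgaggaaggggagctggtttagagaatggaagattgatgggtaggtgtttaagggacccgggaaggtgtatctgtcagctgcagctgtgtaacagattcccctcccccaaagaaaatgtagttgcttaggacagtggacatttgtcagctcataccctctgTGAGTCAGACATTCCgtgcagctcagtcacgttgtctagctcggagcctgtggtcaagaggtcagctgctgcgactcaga
Ccn1: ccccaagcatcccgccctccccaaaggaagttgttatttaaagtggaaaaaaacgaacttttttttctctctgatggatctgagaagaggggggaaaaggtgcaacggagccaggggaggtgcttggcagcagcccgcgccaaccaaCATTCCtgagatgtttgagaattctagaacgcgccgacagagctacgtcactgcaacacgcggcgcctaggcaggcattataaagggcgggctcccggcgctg
Dusp28 held the palindrome 125 to 118 bases before its start, a match found in 1 of 36 higher genes (2.78%), in none of the 15 lower genes and in 0.259% of the genes tested that had a promoter. Pdgfc held CAGAC 242 to 238 and 23 to 19 bases before its start and the TEAD letters at 137 to 132. In Fblim1, TGAGTCA at 80 to 74, CAGAC at 75 to 71 and the TEAD letters on the opposite strand at 71 to 66 ran into each other in a single stretch, and Ccn1 held the TEAD letters on the opposite strand at 103 to 98. CAGAC was in 15 higher genes (41.7%) and 6 lower genes (40.0%) against 44.6% of those tested and 45.8% of all 27025 genes with a promoter. The AP-1 motif was in 4 higher genes (11.1%, Prss23, Fblim1, Plcb3 and Cald1) and 1 lower gene (6.67%, Adh7) against 3.85% of those tested and 12.5% of the 152 genes with a promoter that IFN-γ alone raised over 2-fold at 4 hrs. GGAATG was in 6 higher genes (16.7%) and 1 lower gene (6.67%) against 11.9%, and TTCNNNGAA in 1 of each (2.78 and 6.67%) against 6.90%. These matches describe the letters in the windows and do not show binding.

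Of the 23 lower genes, those with the smallest adjusted p were Nefl, Mt1 and Nrn1. Nefl (ENSMUSG00000022055), the neurofilament light chain, was at 439, 481, 488 and 488 CPM with IFN-γ and at 319, 289, 313 and 318 CPM with both (log2 fold change -0.62, SE 0.07, edgeR adjusted p 1.08e-08). Mt1 (ENSMUSG00000031765), the zinc- and copper-binding metallothionein 1, was at 1062, 1054, 1114 and 1154 CPM and at 734, 832, 726 and 786 CPM (-0.51, SE 0.06, edgeR adjusted p 1.55e-07). Nrn1 (ENSMUSG00000039114), the membrane-anchored neuritin, was at 911, 985, 1029 and 862 CPM and at 739.6, 625, 652 and 708 CPM (-0.47, SE 0.07, edgeR adjusted p 1.42e-06). In these 3 genes every co-treated well lay below every IFN-γ well. Nefm, the medium chain, was at 44.4, 37.6, 29.5 and 32.8 CPM and at 22.2, 20.6, 15.3 and 13.5 CPM (-1.01, edgeR adjusted p 0.0187, DESeq2 adjusted p 0.0679), but it overlaps Nefl on the opposite strand, which had more than 10 times its counts. The zinc transporter Slc30a4, named after its values were seen, had 732 to 802 CPM with IFN-γ and 547 to 632 CPM with both (-0.35, edgeR adjusted p 0.00038).

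Further lower genes named by size were Cytip (-0.61), a regulator of cytohesin, Adh7 (-0.58), a retinol and alcohol dehydrogenase, Camk1d (-0.94), a calmodulin-dependent kinase, and Sema3a (-0.42), a guidance factor, with edgeR adjusted p-values of 0.00089, 0.000401, 0.00374 and 0.00469. Sema3a, for example, was at 269, 235, 249 and 206 CPM with IFN-γ and at 175, 178, 183 and 174 CPM with both, again without overlap. Gch1 (-0.54), Lrrfip2 (-0.53), Nrcam (-0.52), Ypel5 (-0.56) and Arhgap6 (-0.85) passed the edgeR test but not DESeq2, with DESeq2 adjusted p-values of 0.16, 0.217, 0.267, 0.305 and 0.26, and were called in 0 to 3 of the 8 edgeR fits without a single well. Arhgap6 also overlaps Hccs on the opposite strand, which had more counts. Among 12 regulators and markers of mesenchymal transition, the transcriptional repressor Snai2 (Slug) was called lower and none higher (8.33% against 0.252% of all genes), with a list median of -0.16. Snai2 was at 38.3, 49.8, 26.5 and 32.8 CPM with IFN-γ and at 21.1, 20.6, 19.1 and 25.3 CPM with both (-0.81, SE 0.21, edgeR adjusted p 0.0431). The groups did not overlap, yet the call was lost with DESeq2 (adjusted p 0.305) and held in 2 of the 8 edgeR fits without a single well. Snai1 and Foxc2 had every co-treated well above every IFN-γ well and Twist1 every well below, against 3.02% and 3.08% of all genes, and none of these 3 was called.

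IFN-γ target genes as a group were close to their level with IFN-γ alone. Of 116 IFN-γ response genes tested, 80 were raised by IFN-γ over untreated cells at 4 hrs, as were 392 of all genes tested (4.29%, with 5.06% changed in either direction). That comparison and the one described here use the same IFN-γ wells, so that their values are only set side by side. Both factors against IFN-γ called 1 lower (Ccl2, 0.862% against 0.252% of all genes) and none higher. Their median log2 fold change was -0.06, 35 (30.2%) lay above 0 against 48.1% of all genes, and 11 (9.48%) had every co-treated well below every IFN-γ well against 3.08% of all genes, with 0 in the other direction. The 11 were Ccl2, Il33, H2-Q4, Gbp2, Lgals3, Ifnar1, Xaf1, Gbp3, Psmb10, Socs1 and Il18bp. Ccl2 (ENSMUSG00000035385), the chemokine that attracts monocytes, was at 341, 310.1, 299 and 317 CPM with IFN-γ and at 253, 236, 228 and 245 CPM with both. The groups were well apart (log2 fold change -0.40, SE 0.08, edgeR adjusted p 0.0011), and both stood above the 74.4 to 82.9 CPM of untreated wells. Ly6a (Sca-1), an interferon-inducible surface protein outside the pathway lists that is named after its values were seen, was at 415, 456, 429 and 409 CPM and at 324, 327, 358 and 354 CPM (-0.33, edgeR adjusted p 0.00676, called in 5 of 8 fits without a single well).

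The core of the IFN-γ pathway showed differences near 0. Irf1, the transcription factor that relays the response, was at 781, 789.7, 763 and 811 CPM with IFN-γ and at 755, 862, 865 and 796 CPM with both (log2 fold change 0.06, 95% confidence interval -0.06 to 0.18). These groups overlapped. Cd274 (PD-L1) was at 96.2, 113, 115 and 92.3 CPM and at 100.2, 99.6, 101 and 87.5 CPM, and its wider interval ran from -0.32 to 0.13. Of 18 class I presentation genes, 4 lay above 0 and none was called, with a median of -0.04, B2m at -0.04 (-0.14 to 0.05) and H2-K1 at -0.05 (-0.20 to 0.09). H2-Q4, a class I gene with near-identical relatives among which reads may be split, stood apart from them at 18.5, 13.1, 19.2 and 15.5 CPM with IFN-γ and at 3.17, 8.59, 5.74 and 9.02 CPM with both. Its groups did not overlap (log2 fold change -1.24, SE 0.35, edgeR adjusted p 0.0712), and it passed the threshold in the fit of only the 8 wells (0.0321). Cxcl10 was at -0.16 (-0.33 to 0.02) and Socs1, which inhibits JAK kinases, at -0.16 (-0.33 to 0.01), and all 9 listed feedback inhibitors of IFN-γ signalling lay below 0 with a median of -0.16. Gbp2, the most strongly induced of the core genes, was at 3628, 3524, 3648 and 3302 CPM with IFN-γ and at 3153, 3074, 3061 and 3110.2 CPM with both, without overlap. Its difference of -0.19 missed the threshold (edgeR adjusted p 0.0953) and passed it without Activin-A well 1 (0.0118), as did Lgals3 (-0.19, 0.101 and 0.0197) and the alarmin Il33 (-0.33, 0.0675 and 0.0364). Without that well the calls in the list were thus 4 lower (3.39% of 118 tested, against 0.563% of all genes) and none higher, and a fit of only the 8 wells gave 5 (4.35% of 115, against 0.535%).

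A list of IFN-γ-raised genes that rests on other wells gave similar values. At 12 hrs IFN-γ alone changed 9.25% of genes against untreated cells, 6.43% up and 2.82% down. Of 209 tested genes that it had raised over 2-fold, 2 were called lower at 4 hrs (Ccl2 and Ly6a) and none higher, a share of 0.957% against 0.252% of all genes. Without Activin-A well 1 the count was 4 (1.86% against 0.563%), and with only the 8 wells 5 (2.37% against 0.535%). The median was -0.10, 62 (29.7%) lay above 0, and 21 (10.0%) had every co-treated well below every IFN-γ well against 1 (0.478%, Ifi211) above. Of 251 genes that it had lowered, 4 were called higher and 4 lower, together 3.19% against 0.81% of all genes, with a median of 0.02. Without Activin-A well 1 these were 8 (3.19% against 0.888%) and 6 (2.39% against 0.563%). Every co-treated well lay above every IFN-γ well in 18 of the 251 (7.17% against 3.02% of all genes) and below in 15 (5.98% against 3.08%). Of 13 cytosolic nucleic acid sensors tested, 1 (7.69% against 48.1% of all genes) lay above 0, with a median of -0.18 and none called. Only Samhd1 was lower in every co-treated well (1 of 13, 7.69% against 3.08% of all genes), at -0.25 (edgeR adjusted p 0.0995).

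**Figure D3:**
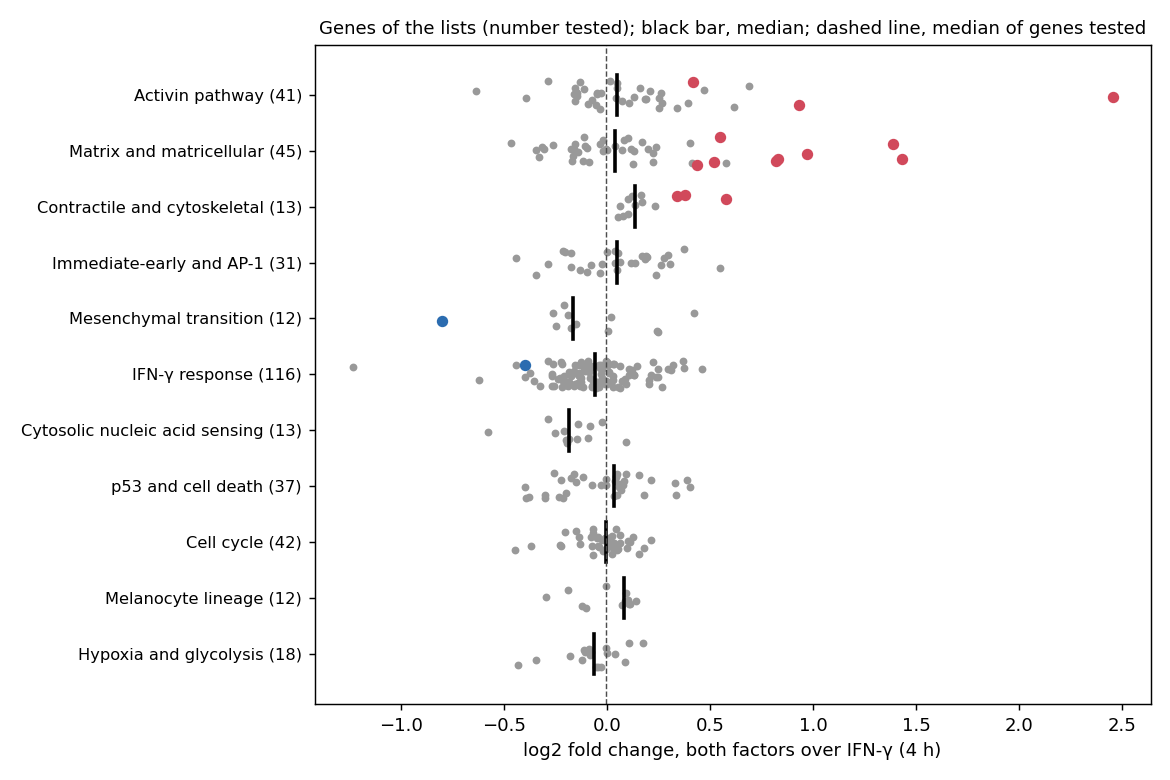
Log2 fold change of both factors over IFN-γ alone at 4 hrs for every tested gene of 11 gene lists, 1 point per gene, with called genes in colour and a bar at the list median. Called higher genes sit among the Activin feedback, matrix and actin-binding genes, and Snai2 was called lower among the mesenchymal transition genes. The 116 IFN-γ response genes run from -1.24 to 0.46 with a median of -0.06, and 1 of them, Ccl2, was called lower.

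Other lists held no call. Immediate-early and AP-1 genes had a median of 0.05 over 31 genes, with Srf, Egr1 and Dusp6 higher and Spry2 lower in every co-treated well but not called. The median was 0.03 over 37 p53 and cell death genes, of which 19 lay above 0, and -0.01 over 42 cell cycle genes. NF-κB genes (-0.06 over 13), melanocyte lineage genes (0.08 over 12), hypoxia genes (-0.07 over 18, of which 4, or 22.2%, lay above 0), amino acid stress and redox genes (-0.02 over 21) and sterol synthesis genes (-0.05 over 20) completed the set. For single core genes of these lists, Myc was at 0.26 (edgeR adjusted p 0.231) and Cdkn1a at -0.15 (edgeR adjusted p 0.738).

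Whether Activin-A acted differently with and without IFN-γ was tested as an interaction over the 16 wells at 4 hrs. No gene passed (0% of 9137, smallest edgeR adjusted p 0.278, 505 genes at an unadjusted p under 0.05), and DESeq2 called none either. Activin-A alone against untreated cells, a comparison that shares no wells with the one described here, called 150 genes (1.64%), 96 higher (1.05%) and 54 lower (0.591%). The values with Activin-A alone include its replicate 1, the well that stood apart from its group. All 51 genes higher with both factors were also above 0 with Activin-A alone, against 49.7% of all genes. Called there were 34 of them, which is 66.7% of the 51 and 35.4% of the 96. Of the 23 lower genes, 20 were below 0 with Activin-A alone, against 50.3% of all genes. Called there were 11, which is 47.8% of the 23 and 20.4% of the 54. The median log2 fold change of the 51 genes was 0.77 in the presence of IFN-γ, where they were selected, and 0.51 without it, and that of the 23 genes -0.51 and -0.42. Pmepa1 rose by 2.45 with IFN-γ and 2.55 without it, Thbs1 by 0.97 and 1.11, and Ccn2 by 1.43 and 1.77. Genes called with IFN-γ present and not without it included Dusp28 (2.42 against 0.83, the latter at an edgeR adjusted p of 0.494), Stard5 (1.03 against 0.21), Bgn (0.44 against 0.22) and Cnn2 (0.34 against 0.16), but for none of them did the interaction pass. Smad7 was the reverse, with 0.86 without IFN-γ (edgeR adjusted p 0.000458) and 0.34 with it, again without a passing interaction.

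**Figure D4:**
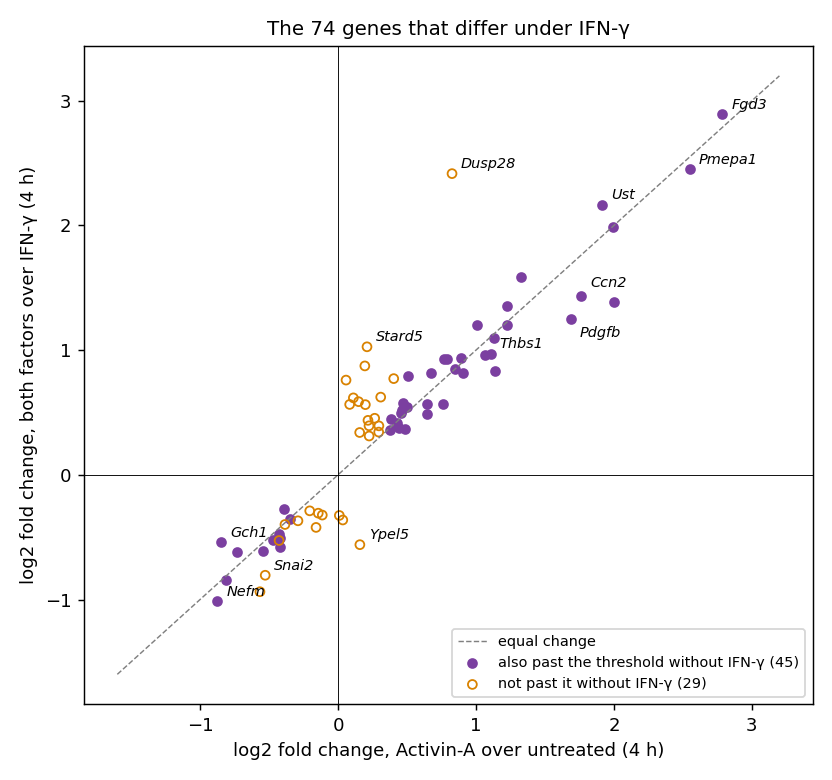
Log2 fold change by Activin-A without IFN-γ (horizontal axis, Activin-A over untreated) and with IFN-γ (vertical axis, both over IFN-γ) at 4 hrs for the 74 genes called between both factors and IFN-γ, of which 45 were also called without IFN-γ and 29 were not. The dashed line marks equal change, and all 51 higher genes lie right of 0.

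Follistatin had the smallest interaction p. Fst (ENSMUSG00000021765) was at 709, 602, 672 and 715 CPM in untreated wells and at 483, 485, 462 and 381 CPM with Activin-A alone, a log2 fold change of -0.58 (edgeR adjusted p 3.39e-08). IFN-γ alone raised it to 1652, 1648, 1697 and 1825 CPM (1.34), and with both factors it was at 1503, 1604, 1479 and 1539 CPM. The co-treated wells were thus all below the IFN-γ wells, but only by -0.16 (95% confidence interval -0.28 to -0.03, edgeR adjusted p 0.338). The interaction was 0.42 (SE 0.09, edgeR adjusted p 0.278). It passed the threshold with no filter on low counts (adjusted p 0.0495), in a fit of all 32 samples (0.0377) and without Activin-A well 1 (0.00176, log2 value 0.47), as the single gene called in each of these edgeR fits. The next genes, Bnip3 and Ap2a1, had an edgeR adjusted p of 0.546.

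The same comparison after 12 hrs used other wells throughout, and called 92 of 8971 genes (1.03%), 41 higher (0.457%) and 51 lower (0.568%). Of the 51 genes higher at 4 hrs, 47 were tested at 12 hrs, and 43 of them lay above 0, against 48.3% of all genes. Of the 51, 10 were called again, which is 19.6% of the 51 and 24.4% of the 41. These were Pmepa1, Thbs1, Ccn2, Ccn1, Cald1, Itgb5, Bgn, Col5a2, Cnn2 and Klhdc8a. Of the 23 lower genes, 21 were below 0 at 12 hrs, against 51.7% of all genes. Called again were 4 (Nefl, Adh7, Ccl2 and Ly6a), which is 17.4% of the 23 and 7.84% of the 51 lower at 12 hrs. The median log2 fold change of the higher genes was 0.77 at 4 hrs and 0.25 at 12 hrs, and that of the lower genes -0.51 and -0.18, where the values at 4 hrs are those that selected the genes. Skil and Ski were at 0.06 and 0.14 at 12 hrs and not called.

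Genes that Activin-A alone had changed at 12 hrs against untreated cells (2.41% of those tested, 1.25% higher and 1.16% lower), again in other wells, mostly lay on the same side of 0. Of 111 of the higher ones tested, 30 (27.0%, against 0.558% of all genes) were called higher and none lower with both factors over IFN-γ at 4 hrs, 103 lay above 0, 49 (44.1% against 3.02%) had every co-treated well above every IFN-γ well, and the median was 0.25. Of 103 of the lower ones tested, 14 (13.6% against 0.252%) were called lower and none higher, 7 lay above 0, 40 (38.8% against 3.08%) had every co-treated well below, and the median was -0.20. Without Activin-A well 1 the higher count was 43 (38.4% against 0.888% of all genes) and the lower 28 (27.2% against 0.563%). With only the 8 wells they were 42 (38.5% against 0.831%) and 26 (25.5% against 0.535%). DESeq2, which kept 42 of the 74 calls, gave 26 and 8, and its share of all genes in each direction is not given here. Over all genes tested the median was -0.01.

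A test of the difference between the times over all 32 samples called 9 of 9332 genes (0.0964%), 4 with a more positive effect at 12 hrs (0.0429%) and 5 with a more negative one (0.0536%). Pmepa1 was at 31.6, 29.3, 29.3 and 34.2 CPM with IFN-γ and at 60.1, 52.95, 77.8 and 46.7 CPM with both at 12 hrs, so that its log2 fold change fell from 2.45 to 0.93 (difference -1.53, SE 0.25, edgeR adjusted p 6.90e-05). Mt1 was at 406 to 462 CPM with IFN-γ and 397 to 403 CPM with both at 12 hrs, without overlap. Its effect moved from -0.51 to -0.09 (difference 0.42, edgeR adjusted p 0.0387). The difference was called in 6 of the 16 fits without a single well. Ccn2, in contrast, kept a similar effect, with 131 to 149.6 CPM against 372 to 431 CPM at 12 hrs and a log2 fold change of 1.43 at 4 hrs and an edgeR adjusted p of 1.31e-29 at 12 hrs. The effect of adding Activin-A to IFN-γ on Acta2 and Dmp1 was larger at 12 hrs (difference 0.74 and 1.28, edgeR adjusted p 1.51e-07 and 4.93e-06). At 4 hrs neither was called (0.17 and -0.01). The other genes called for a difference were Sertad4 (1.59), Crabp1 (-0.35), Chst2 (-0.55), Oasl2 (-0.54) and Igsf11 (-1.05). DESeq2 called only Acta2, Dmp1 and Pmepa1 for a difference, as did edgeR without both replicate 4 at 4 hrs, IFN-γ replicate 3 at 4 hrs, or both replicate 1 or 3 at 12 hrs. Among genes not called at 4 hrs, Cxcl10 stood at -0.16 and -0.65 and Il33 at -0.33 and -0.87 at the 2 times, with edgeR adjusted p-values of 5.21e-06 and 3.46e-13 at 12 hrs, and the difference between the times was not called for either with all wells. Il33 was called for it in 3 of the 16 fits without a single well (without both replicate 2 or 4 at 12 hrs, or both replicate 1 at 4 hrs). Without both replicate 2 at 12 hrs the calls numbered 18, among them Il33, Ccl2, Isg15, Ifit3, Irf7 and Ifi44, all with a more negative effect at 12 hrs.

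**Figure D5:**
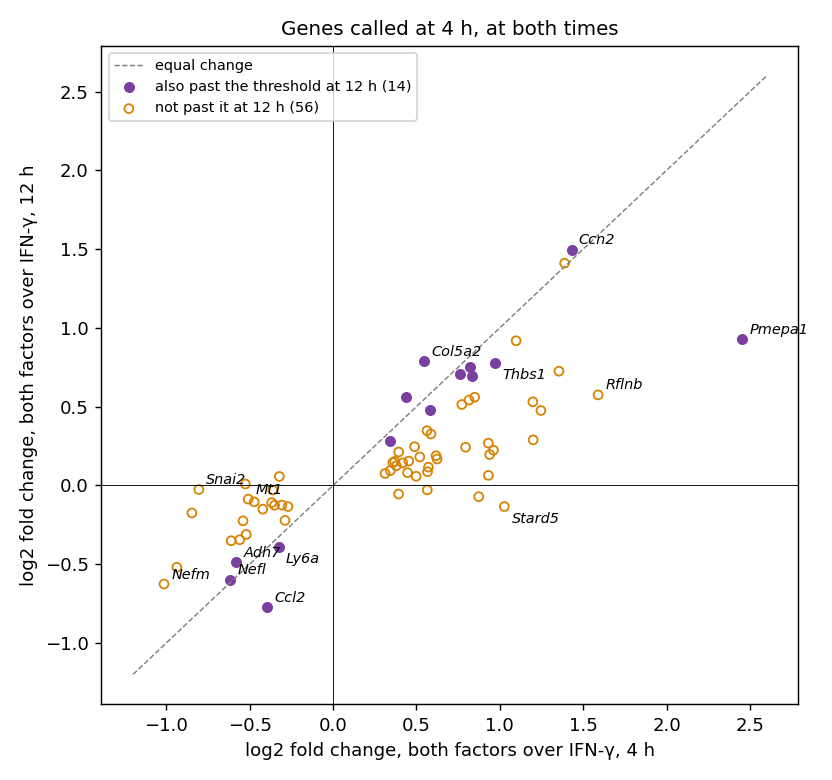
Log2 fold change of both factors over IFN-γ alone at 4 hrs (horizontal axis) and at 12 hrs (vertical axis) for the 70 genes called at 4 hrs and tested at both times, with 14 called at 12 hrs and 56 not. Most points lie closer to 0 at 12 hrs, and Ccn2 and Nefl stay near the line of equal change.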

How the data were processed

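BRB-seq libraries were made from mRNA of 32 wells of YUMM3.3 cells. The authors deposited raw counts per gene, whole numbers without normalization. Per the labels, reads were aligned with STAR (2.7.10b) to GRCm39 and counted with featureCounts, and DESeq2 (1.36.0) was used. The gene annotation, the strand setting and the treatment of molecular identifiers are not given in the sources used here, so that duplicates were left as counted, and floors cover counting error only. Of 12451 identifiers, 12437 had a symbol in the GENCODE annotation for GRCm38 and 14 did not.

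Samples were grouped by their labels. The 16 wells at 4 hrs were fitted together in R (4.3.3) with edgeR (4.0.16, limma 3.58.1), after filterByExpr and TMM normalization, with 1 term per treatment, and both against IFN-γ was tested by the quasi-likelihood test with Benjamini-Hochberg adjustment over 9137 genes and a threshold of 0.05. The interaction came from the same fit, the 12 hrs values from a like fit of 8971 genes, and the difference between times from all 32 samples. CPM values use TMM-scaled totals over the genes tested, and SE and 95% intervals are those of the fit, which reflect the spread between wells. The study's methods name DESeq2, which was run (1.42.0) as an alternative.

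The members and gene lists were chosen with earlier results of these data known. Named genes were the 15 from either end of the fold changes among called genes with at least 10 counts on average and no overlap between groups, called genes on a list, core pathway genes, and the 3 genes with the smallest interaction p. Some genes that entered the tests and counts are not reported here by name. The scripts were tested on simulated counts. Alternatives were DESeq2, RLE normalization, no filter, a minimum of 10 counts per sample, a block for the replicate number, other sets of samples, a threshold of 0.01, and leaving out each well. Promoters were those of RefSeq for GRCm38.p6, and no gene coordinates are given, since the reference annotation used is of another build than the counts. Figures were drawn with Python (3.11.15), pandas (2.3.3) and matplotlib (3.10.9).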

Additional observations from a re-analysis of the deposited data

Results flagged for a closer look

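In 12 of the 204 groups of 4 wells looked at over the named genes, a single well lay farther from the others than Dixon's 95% critical value, and chance alone gives about 1 in 20. In the IFN-γ group at 4 hrs these were Pdgfb in replicate 4 (8.62 CPM, highest), Arhgap6 and Adh7 in replicate 2 (34.1 and 231 CPM, both highest), Nefl and Col5a2 in replicate 1 (439 and 82.7 CPM, both lowest), and Bpgm and Fam49b in replicate 3 (39.8 and 340.4 CPM, both highest). In the co-treated group they were Pdgfb, Glp1r and Nectin3 in replicate 1 (16.9, 28.5 and 175 CPM, all highest), Il33 in replicate 1 (138 CPM, lowest) and Cd274 in replicate 4 (87.5 CPM, lowest). Of these genes, only Cd274 overlapped between the groups.

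For 2 genes called at 4 hrs the effect of adding Activin-A to IFN-γ differed between the times in edgeR's quasi-likelihood test. The log2 fold change of Pmepa1 was smaller at 12 hrs by -1.53 (adjusted p 6.90e-05), and it was above 0 at both times. That of Mt1 was less negative at 12 hrs by 0.42 (adjusted p 0.0387), where DESeq2 did not call the difference and edgeR called it in 6 of 16 fits without a single well.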

How the results depend on the processing

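The 74 calls kept their direction under every alternative tried, and 33 were called in all of them and in each fit without a single well. The count was 44 with DESeq2 (42 shared), 40 at an adjusted p under 0.01, 134 without Activin-A replicate 1 at 4 hrs (all 74 shared) and 120 with only the 8 wells compared (72 shared), and the other alternatives gave 69 to 98. Leaving out 1 of the 8 wells gave 47 to 72, with 47 without both replicate 4 and without IFN-γ replicate 2 and 49 without IFN-γ replicate 1. The cause was not tested. A block for the replicate number gave 69, of which 68 were shared. Between the IFN-γ and co-treated groups, correlations were -0.035 to 0.0065 in the 4 pairs of wells with the same number. They were -0.025 to 0.055 in the other pairs. Whether wells of the same number shared a culture or plate is not given in the labels and was not tested. The interaction count rose from 0 to 1 (Fst) with no filter, with all 32 samples and without Activin-A replicate 1, and was 0 to 1 over the fits without a single well. Activin-A alone at 4 hrs gave 150 calls, 84 with DESeq2 and 110 to 163 without a single well. IFN-γ at 4 hrs gave 462, and 412 to 439 without a single well. At 12 hrs, both against IFN-γ gave 92, 61 with DESeq2 and 62 to 91 without a single well, Activin-A alone 216, 136 with DESeq2 and 170 to 201, and IFN-γ 830 and 689 to 771. The difference between times gave 9 calls, 3 with DESeq2 (Acta2, Dmp1 and Pmepa1) and 3 to 18 without a single well. Among the named genes, the log2 fold change of 7 uncalled ones changed sign without a single well, with ranges of -0.23 to 0.045 for Acvr1b, -0.25 to 0.40 for Mitf, -0.077 to 0.014 for Id3, -0.17 to 0.16 for Cgas, -0.039 to 0.15 for Smad3, -0.043 to 0.11 for Bnip3 and -0.021 to 0.41 for Acvr2a. Dusp28, Fgd3, Fgf2, Rflnb and Ust, the 5 called genes with an IFN-γ well under 3 counts, have imprecise folds.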

Other observations

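Without Activin-A replicate 1 at 4 hrs in the fit, 60 further genes were called, 31 higher and 29 lower. Of the 60, 46 did not overlap between groups, in the same wells that selected them. On a list were 7 of the 60, and the others, named here after their values were seen, included abundant cytoskeletal genes. Actb, cytoplasmic β-actin, was at 4235, 4102, 4104 and 4999 CPM with IFN-γ and at 4691, 4875, 5093 and 5090.1 CPM with both (log2 fold change 0.18, edgeR adjusted p 0.0993 with that well and 0.00636 without it). These wells overlapped, because 1 IFN-γ well was high. Msn, moesin, which links actin to the membrane, was at 690 to 737 CPM and at 812 to 839 CPM without overlap (0.21, edgeR adjusted p 0.0859 and 0.0166), and Lasp1, a LIM protein of actin structures, at 336 to 354 CPM and at 401 to 432 CPM (0.26, edgeR adjusted p 0.0655 and 0.015). Among the lower genes, Anxa1, the glucocorticoid-induced annexin 1, was at 2759 to 3083 CPM with IFN-γ and at 2528 to 2667 CPM with both (-0.18, edgeR adjusted p 0.15 and 0.0137). Helz2, an interferon-inducible helicase, was at 27.1, 28.8, 35.4 and 32.8 CPM and at 24.3, 19.7, 15.3 and 10.8 CPM (-0.83, edgeR adjusted p 0.0546 and 0.034). The mitochondrial gene mt-Co1 was called there too, but its wells overlapped, with 245 to 1266 CPM with both factors.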
